A study of Homo sapiens with 20 samples.

Results

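The genes of the secretory route through the endoplasmic reticulum (ER) and of its unfolded protein response were followed in MM1.S cells treated with dCBP-30. A list of 55 genes was taken, of 19617 genes with a transcript whose 3′ UTR was covered by the counting, with or without reads. Each gene was represented by the transcript with the most reads over all libraries. The list holds 4 stress sensors and regulators, 18 chaperones and folding enzymes, 17 genes of translocation into the ER, 8 of ER-associated degradation, 6 of vesicle transport and 2 secretion factors of plasma cells. MM1.S is a human multiple myeloma cell line, a tumor of antibody-secreting plasma cells, and dCBP-30 is a bifunctional degrader (PROTAC) of the histone acetyltransferases CBP and p300. Wild-type cells of this 1 line received 10 nM dCBP-30 or the solvent DMSO for 2, 6 or 24 h, with 3 libraries in each of 6 groups, and newly made RNA was labelled with 4-thiouridine (4sU) for the last 1 h. A further 2 libraries received no 4sU. In SLAM-seq, alkylated 4sU pairs like C during sequencing, so T>C conversions mark the reads of RNA made during labelling, whereas the total reads measure the whole RNA pool.

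In the ER, secreted and membrane proteins enter through the Sec61 channel, lose their signal peptide, and are folded with the help of chaperones and disulfide isomerases. The sensors IRE1 (ERN1), ATF6 and PERK (EIF2AK3) respond to unfolded protein and raise the transcription of chaperone and degradation genes through the factors XBP1, cleaved ATF6 and ATF4. Plasma cells depend on this system because they secrete antibody in bulk.

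The identity of the line was checked against marker genes. Of 9 plasma cell markers, 7 were well covered under DMSO, among them SDC1 at 1020 to 1620 reads per 1000000 (RPM) and SLAMF7 at 404 to 490 RPM, whereas CD27 and FCRL5 did not exceed 0.908 RPM. Of 10 markers of other cells, none exceeded 9.84 RPM under DMSO, and CD3D had 0 reads. Libraries held 12440700 to 18729086 reads on genes, and between 4.71% and 8.62% of these carried T>C conversions in labelled libraries, against 0.794% and 0.809% without 4sU. The list as a whole took up 1.66% to 1.93% of all reads under DMSO, and under dCBP-30 1.73% to 1.86% at 2 h, 1.66% to 1.75% at 6 h and 1.03% to 1.06% at 24 h. Its share of T>C reads was 1.36% to 1.52% under DMSO, and 1.28% to 1.39%, 0.881% to 0.964% and 0.762% to 0.867% under dCBP-30 at the 3 time points. Because cells were lysed in bulk, fewer cells of a type and less RNA per cell cannot be told apart.

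Levels below are in RPM, that is reads or T>C reads per 1000000 total reads of the library multiplied by its TMM factor, and a log2 fold change is dCBP-30 over DMSO with its standard error. A gene is said to rise or fall where edgeR's adjusted p was under 0.05. Of the 55 genes, 54 passed the filter for T>C reads; ERO1B did not. All 55 passed for total reads.

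The number of genes with less newly made RNA grew from time point to time point (the map of changes by gene). At 2 h, 14 genes fell in T>C reads and 12 of them by over 2-fold, where 8.35% and 7.14% of all 10086 genes tested did. At the same time 3 genes rose and 1 of them by over 2-fold, against 2.45% and 1.66% of all genes. At 6 h, 34 fell and 26 by over 2-fold (all genes 21.3% and 17.1%), and 0 rose at either size (all genes 3.02% and 2.36%). At 24 h, 49 fell and 42 by over 2-fold (all genes 37.1% and 31.2%), and again 0 rose (all genes 2.77% and 2.17%). The median log2 fold change of the list was -0.33, -0.82 and -1.40 at the 3 time points, beside 0.05, -0.27 and -0.69 over all genes tested. The list's median therefore lay 0.37, 0.55 and 0.71 below that of all genes. Scaling T>C reads by their own total shifts all genes of a comparison nearly alike. The gap, 0.37, 0.55 and 0.72 there, could thus hardly move and is no check of the result. Every gene that had fallen at 2 h was also lower at 6 h and 24 h; 19 fell from 6 h on, 16 at 24 h alone, KDELR2 at 6 h alone, and DERL2, EDEM2, SEC23B and SRP54 at no time point. Such patterns over time were not counted over all genes, so they are not shown to be particular to this list. The count at 24 h depends on the scaling: 20 genes fell by over 2-fold when T>C reads were scaled by their own total (all genes 1513 lower and 759 higher, in place of 3148 and 219) and 24 without TMM factors (1763 and 602). On the first of these scalings none of the 17 single calls made at 2 h was lost (0), but 11 among 34 from 6 h and 22 among 49 from 24 h were, and 3, 8 and 8 calls did not survive leaving out some 1 library.

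Total RNA followed later. At 2 h only ERN1, EIF2AK3 and HERPUD1 fell in total reads, and 2 of these by over 2-fold, where 2.67% and 1.25% of 12272 genes tested did; 0 rose (all genes 1.55% and 0.464%). At 6 h, 36 genes fell, 7 by over 2-fold (all genes 21.5% and 8.67%), and 2 rose, 1 by over 2-fold (all genes 18.8% and 7.47%). At 24 h, 47 fell, 25 by over 2-fold (all genes 29.9% and 16.1%), and 1 rose, by over 2-fold (all genes 28.7% and 15.0%). Median log2 fold changes of the list were -0.14, -0.50 and -0.89, while those of all genes were 0.00, 0.02 and 0.05. All 3 genes down in total reads at 2 h were also down in T>C reads, and 11 more were down in T>C reads only. By 24 h, 46 were down in both measures. Of all genes 37.1% fell in T>C reads and 29.9% in total reads, but the share down in both was not computed at any time point. Of the 38 calls at 6 h and the 48 at 24 h, 11 and 3 did not survive leaving out some 1 library. Without TMM factors, 20 and 17 of these calls were lost, and 3 genes fell by over 2-fold at 6 h and 10 at 24 h. The median of all genes moved to 0.35 and 0.58. Past 2-fold, 731 of all genes were lower and 1765 higher at 6 h, in place of 1064 and 917. At 24 h, 1061 were lower and 3689 higher, in place of 1972 and 1841. The list's median lay 0.53 and 0.94 below that of all genes, a gap that a change of scaling can hardly move.

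**Figure D1:**
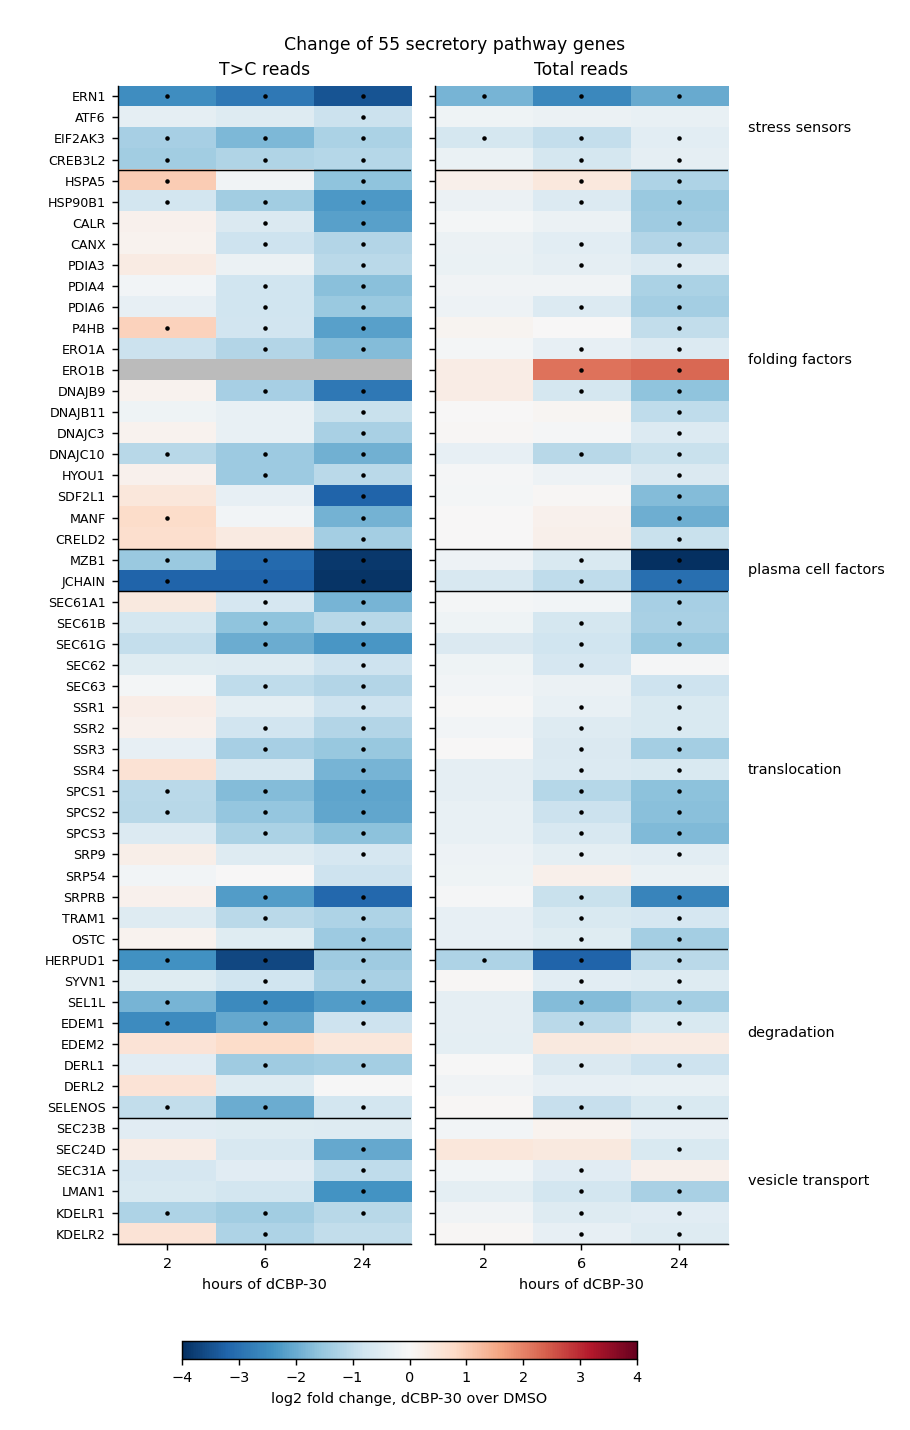
Log2 fold change of T>C reads (left) and total reads (right) under dCBP-30 against DMSO for each of the 55 genes at 2, 6 and 24 h, grouped by role; black dots mark an adjusted p under 0.05 and grey marks a gene not tested (ERO1B). Blue spreads from the sensors, plasma cell factors and degradation genes at 2 h to nearly all rows at 24 h, and in T>C reads HSPA5, P4HB and MANF are red with a dot at 2 h and blue at 24 h.

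**Figure D2:**
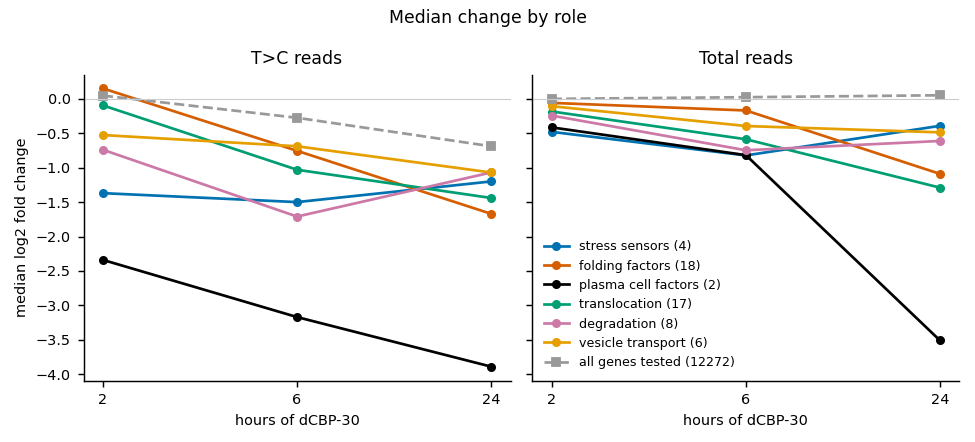
Median log2 fold change of each role group (number of genes tested for total reads in brackets) and of all genes tested, for T>C reads (left) and total reads (right) at 2, 6 and 24 h. In T>C reads the stress sensors start at -1.37 while the folding factors start at 0.15 and end at -1.67, and for all genes tested the dashed line stays near 0 in total reads.

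The promoters of the list were examined for the 2 classical DNA elements of the unfolded protein response, which are shown because they set apart genes of the list that share a known route of control. The ER stress response element, bound by NF-Y together with ATF6 or XBP1, was searched as CCAAT and CCACG with 9 bases between them, and the unfolded protein response element, bound by XBP1, as TGACGTGG, both on either strand and without overlap between the 2. RefSeq promoters on GRCh38.p14, from 250 bases before to 50 bases after each start, were given for 49 of the 55 genes (TRAM1, SEC24D, SPCS1, DERL1, KDELR2 and PDIA3 had none here). The ER stress response element was found for 7 of these 49 genes (14.3%) and for 25 of 27305 genes in all (0.0916%). The unfolded protein response element was found for 5 of the 49 (10.2%) and for 253 of all genes (0.927%). A match is a description of the sequence and not proof of binding. The promoter of HSPA5 on the minus strand (chr9:125241294-125241593) holds 1 exact match, in capitals, ending 47 bases before the start:
HSPA5: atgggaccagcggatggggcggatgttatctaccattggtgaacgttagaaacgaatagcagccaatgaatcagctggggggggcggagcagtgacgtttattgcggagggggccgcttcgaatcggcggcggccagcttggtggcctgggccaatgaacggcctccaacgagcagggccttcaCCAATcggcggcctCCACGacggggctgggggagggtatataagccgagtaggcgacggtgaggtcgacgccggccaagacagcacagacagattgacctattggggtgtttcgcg
The same element stands in the other promoters below, each read along the strand that holds it with 8 flanking bases on either side (fewer where the promoter ends) and with CCAAT and CCACG in capitals. They lie at chr2:10812845-10812879 (minus strand, PDIA6), chr5:179698770-179698804 (plus strand, CANX), chr12:103930208-103930242 (plus strand) and chr12:103930313-103930347 (minus strand) for HSP90B1, chr19:12938376-12938410 (minus strand, CALR), chr22:49918546-49918580 (minus strand, CRELD2) and chr1:236282175-236282208 (plus strand, ERO1B):
PDIA6: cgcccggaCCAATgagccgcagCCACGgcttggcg
CANX: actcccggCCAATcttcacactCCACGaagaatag
HSP90B1 far site: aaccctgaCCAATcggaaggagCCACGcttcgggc
HSP90B1 near site: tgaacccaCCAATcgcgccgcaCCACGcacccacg
CALR: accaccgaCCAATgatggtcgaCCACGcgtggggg
CRELD2: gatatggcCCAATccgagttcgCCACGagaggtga
ERO1B: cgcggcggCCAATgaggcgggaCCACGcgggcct
The unfolded protein response element, in capitals, was found at chr2:182716124-182716147 (minus strand, DNAJC10), chr3:156554151-156554174 (plus strand, SSR3), chr3:169966782-169966805 (minus strand, SEC62), chr11:119057378-119057401 (minus strand, HYOU1) and chrX:153794531-153794554 (minus strand, SSR4):
DNAJC10: gtttaggtTGACGTGGcggtgtgc
SSR3: ttccttgcTGACGTGGctgttatc
SEC62: gttccctcTGACGTGGagcgagga
HYOU1: tggccccgTGACGTGGtccaatcc
SSR4: ggcagcacTGACGTGGcccctccc

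At 2 h both directions were called among carriers of the same element. Of those with the ER stress response element, HSPA5 rose in T>C reads (log2 fold change 1.02) and HSP90B1, with a pair of sites, fell (-0.74). No call was made for CRELD2 (0.69 ± 0.47), CALR (0.16 ± 0.15), CANX (0.15 ± 0.19) or PDIA6 (-0.34 ± 0.19), and ERO1B had too few T>C reads to test. At 24 h all 6 that were tested fell, as did all 17 folding factors tested and 37.1% of all genes, with log2 fold changes of -1.60 for HSPA5, -2.30 for HSP90B1, -2.19 for CALR, -1.50 for PDIA6, -1.35 for CRELD2 and -1.17 for CANX. Of the genes with the unfolded protein response element, DNAJC10 alone fell at 2 h (-1.10); SSR3 (-0.32 ± 0.16), SEC62 (-0.47 ± 0.22), HYOU1 (0.16 ± 0.25) and SSR4 (0.57 ± 0.49) gave no call. All 5 fell at 24 h, with -1.91 for DNAJC10, -1.52 for SSR3, -0.82 for SEC62, -1.07 for HYOU1 and -1.85 for SSR4. Scaled by T>C reads the 24 h calls for SEC62, HYOU1 and SSR4 were lost, and that for SSR4 also with background subtracted (adjusted p = 0.101).

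Of the 4 sensors and regulators, ERN1, EIF2AK3 and CREB3L2 fell in newly made RNA at every time point, and ATF6 fell at 24 h alone. ERN1 encodes IRE1, the ER membrane kinase and RNase that splices XBP1 mRNA; its reads came from the single exon of its 3′ UTR at chr17:64126103-64129816, minus strand. T>C reads of ERN1 were 30.2, 38.6 and 34.9 RPM under DMSO and 4.74, 7.59 and 6.13 RPM under dCBP-30 at 2 h. They were 44.9, 47.3 and 44.3 against 6.11, 5.72 and 7.05 RPM at 6 h, and 81.2, 54.5 and 62.3 against 6.78, 5.44 and 5.74 RPM at 24 h. Every treated library thus lay below every control, with log2 fold changes of -2.48 ± 0.20 (adjusted p = 8.05e-16), -2.85 ± 0.20 (adjusted p = 1.28e-18) and -3.46 ± 0.20 (adjusted p = 8.1e-22). Total reads of ERN1 were 58.8, 75.7 and 71.5 against 19.5, 21.8 and 15.6 RPM at 2 h. They were 90.7, 81.4 and 80.2 against 15.2, 12.9 and 13.7 RPM at 6 h and 128, 88.4 and 103 against 29.1, 23.1 and 27.2 RPM at 24 h. The pool fell at each time (-1.86, -2.59 and -2.01). ERN1 had one of the highest shares of new RNA on the list, with 50.4% ± 1.35 of its reads carrying conversions under DMSO at 2 h, against 1.33% ± 0.513 (SD, n = 2) without 4sU.

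EIF2AK3 encodes PERK, the ER kinase that phosphorylates eIF2α. Its T>C reads were 12.5, 12.3 and 11.8 RPM under DMSO and 6.30, 3.76 and 4.57 RPM under dCBP-30 at 2 h. They were 24.3, 16.3 and 15.1 against 5.15, 4.55 and 6.37 RPM at 6 h and 23.3, 20.0 and 19.3 against 8.59, 8.68 and 9.01 RPM at 24 h. The groups did not overlap, and the log2 fold changes were -1.34 ± 0.25 (adjusted p = 3.39e-05), -1.79 ± 0.24 (adjusted p = 1.47e-08) and -1.25 ± 0.23 (adjusted p = 1.15e-05). Its total reads were 53.2, 54.2 and 54.9 against 31.0, 38.7 and 30.9 RPM at 2 h, 76.2, 65.4 and 52.8 against 30.9, 36.7 and 33.7 RPM at 6 h and 49.0, 45.4 and 49.2 against 37.0, 33.5 and 35.5 RPM at 24 h. They fell each time, with -0.69, -0.94 and -0.44 on the log2 scale. The annotated 3′ UTR of the transcript used for EIF2AK3 runs over 13 exons and an antisense gene overlaps it, so which part its reads came from is uncertain. The same holds, with an antisense overlap, for HSP90B1 (17 exons), P4HB (10), DNAJB11 (7) and SEC61A1 (6). For DNAJC10 (20 exons), CANX (14), PDIA3 (13) and SRP54 (12) the origin of the reads within the annotated 3′ UTR is uncertain too. An annotated gene on the same strand also overlaps the 3′ UTR of DNAJB11, and another that of DNAJC10. T>C reads of CREB3L2, a membrane-bound factor related to ATF6, were 15.0 ± 3.64 RPM under DMSO and 5.63 ± 1.05 RPM under dCBP-30 at 2 h (-1.40 ± 0.26, adjusted p = 2.61e-05), and its later log2 fold changes were -1.20 and -1.15.

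ATF6, the sensor that is cut in the Golgi to release a transcription factor, was called at 24 h only. Its T>C reads were 10.7, 10.6 and 11.1 RPM under DMSO and 5.69, 8.58 and 10.6 RPM under dCBP-30 at 2 h, and the ranges overlapped. At 6 h they were 8.56, 12.8 and 11.5 against 9.58, 5.83 and 7.72 RPM, again overlapping. At 24 h, 9.65, 11.5 and 11.4 RPM stood against 5.20, 5.66 and 6.92 RPM, with no overlap and a log2 fold change of -0.87 ± 0.26 (adjusted p = 0.00596). Its total reads, 80.1, 78.0 and 78.3 against 64.9, 58.1 and 86.4 RPM at 2 h, 73.3, 77.4 and 72.8 against 64.7, 65.0 and 59.9 RPM at 6 h and 59.5, 77.1 and 70.1 against 50.0, 59.4 and 59.7 RPM at 24 h, gave no call (-0.17 ± 0.13, -0.24 ± 0.13 and -0.29 ± 0.13). When T>C reads were scaled by their own total, the 24 h falls of ATF6 (-0.23, adjusted p = 0.552) and CREB3L2 (-0.49, adjusted p = 0.129) were no longer called. Without TMM factors the total reads of EIF2AK3 and CREB3L2 at 24 h turned to 0.08 and 0.18, not called, and the call for CREB3L2 was also lost without dCBP-30 library 3 or DMSO library 1 or 3 (adjusted p 0.0503 to 0.0975).

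Among the 17 chaperones and folding enzymes tested for T>C reads, 3 rose at 2 h, 2 fell at 2 h, 10 fell at 6 h and 17 fell at 24 h. Of all genes 2.45% rose at 2 h and 8.35%, 21.3% and 37.1% fell, so the 2 h falls are near that share. HSPA5, known as BiP, is the Hsp70 of the ER lumen that holds the sensors inactive; its reads came from chr9:125234853-125236591, minus strand. At 2 h, T>C reads of HSPA5 were 62.6, 63.2 and 67.0 RPM under DMSO and 124, 125 and 143 RPM under dCBP-30. Every treated library was above every control, with a log2 fold change of 1.02 ± 0.15 (adjusted p = 1.06e-07), from 813, 896 and 897 T>C reads counted under DMSO and 1433, 1887 and 2286 under dCBP-30. At 6 h the groups overlapped, with 48.3, 60.1 and 62.5 against 57.6, 49.5 and 48.4 RPM. At 24 h they stood apart in the opposite direction, with 92.6, 94.4 and 83.5 RPM under DMSO and 29.8, 28.9 and 30.5 RPM under dCBP-30, a log2 fold change of -1.60 ± 0.15 (adjusted p = 7.95e-14). The change at 24 h minus that at 2 h was -2.62 on the log2 scale (adjusted p = 1.08e-15).

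In the total HSPA5 pool the rise was called at 6 h. Total reads were 1029, 1076 and 1024 RPM under DMSO and 1158, 1139 and 1276 RPM under dCBP-30 at 2 h, which gave no call (0.19 ± 0.09). At 6 h they had risen, from 882, 1053 and 1027 to 1359, 1359 and 1238 RPM, a log2 fold change of 0.42 ± 0.09 (adjusted p = 0.000826). At 24 h they had fallen, from 990.3, 1006 and 969.6 to 422, 408 and 431 RPM (-1.23 ± 0.09, adjusted p = 3.49e-11). Multimapping reads, which are counted apart, made up 9.15% of all reads at the HSPA5 3′ UTR.

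P4HB, a protein disulfide isomerase, and MANF, a secreted ER stress factor, were the other genes of the list to rise at 2 h. T>C reads of P4HB were 20.0 ± 2.76 RPM under DMSO and 38.3 ± 3.33 RPM under dCBP-30 (0.93 ± 0.20, adjusted p = 0.000431). MANF had 15.5, 14.7 and 16.2 RPM under DMSO and 28.1, 21.5 and 27.2 RPM under dCBP-30 at 2 h (0.73 ± 0.20, adjusted p = 0.00702). Both had reversed by 24 h, when MANF stood at 22.8, 24.8 and 24.1 against 6.18, 6.70 and 6.33 RPM (-1.90 ± 0.21, adjusted p = 1.54e-11) and P4HB was lower too (-2.18). At 6 h MANF had 14.6, 14.1 and 13.7 against 12.3, 11.7 and 15.4 RPM, overlapping, and P4HB was lower (-0.75), a call that was lost scaled by T>C reads (-0.44, adjusted p = 0.104) and without TMM factors (-0.44, adjusted p = 0.123). In total reads neither was called at 2 or 6 h, and at 24 h MANF fell from 403, 414 and 409 to 98.1, 104 and 113 RPM (-1.96 ± 0.10, adjusted p = 3.37e-14) and P4HB from 822 ± 46.9 to 412 ± 17.0 RPM. Without dCBP-30 library 1 at 2 h the rise of MANF lost its call (0.66, adjusted p = 0.0533), and without DMSO library 2 at 2 h P4HB passed 2-fold as well, giving 2 such rises in place of 1.

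SDF2L1, an ER-resident cofactor of HSPA5, and DNAJB9, an Hsp40 co-chaperone, showed the steepest late falls of the group. T>C reads of SDF2L1 were 3.39, 9.59 and 4.78 RPM under DMSO and 7.16, 7.99 and 9.26 RPM under dCBP-30 at 2 h, with the ranges overlapping. At 6 h they were 6.02, 5.76 and 3.05 against 3.89, 3.27 and 4.60 RPM, also overlapping. At 24 h 8.55, 10.1 and 16.5 RPM had become 1.26, 1.37 and 1.18 RPM, a log2 fold change of -3.20 ± 0.37 (adjusted p = 1.11e-10). DNAJB9 had 26.7, 18.7 and 21.1 against 24.1, 18.2 and 30.3 RPM at 2 h and 15.8, 18.2 and 14.0 against 8.08, 7.38 and 3.80 RPM at 6 h. By 24 h DNAJB9 had gone from 31.1, 33.7 and 29.4 RPM to 3.99, 3.02 and 6.01 RPM. Its groups overlapped at 2 h only, and it fell at 6 h (-1.32 ± 0.24, adjusted p = 1.07e-05) and 24 h (-2.85 ± 0.25, adjusted p = 8.16e-15). Like ERN1, DNAJB9 had a high share of new RNA under DMSO, with 46.5% ± 8.55 of its reads converted at 2 h.

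HSP90B1, the Hsp90 of the ER (GRP94), did not share the early rise and fell throughout, with log2 fold changes of -0.74 at 2 h, -1.40 at 6 h and -2.30 at 24 h. DNAJC10, an ER disulfide reductase, fell likewise (-1.10, -1.45 and -1.91); its 2 h call was lost without dCBP-30 library 3 (adjusted p = 0.242) or DMSO library 2 (adjusted p = 0.123) of that time. The lectin chaperones CALR and CANX and the isomerases PDIA4 and PDIA6 fell from 6 h, reaching -2.19, -1.17, -1.67 and -1.50 at 24 h. Scaled by T>C reads the 6 h calls for CALR, PDIA4 and PDIA6 were lost (adjusted p 0.0584 to 0.214). That for PDIA4 was also lost without dCBP-30 library 1 or DMSO library 1 of that time (adjusted p 0.101 and 0.188). ERO1A, the oxidase that recharges P4HB, and HYOU1, an Hsp110 exchange factor, also fell from 6 h, to -1.72 and -1.07 at 24 h. The 6 h call for ERO1A was lost without any 1 library of that time other than dCBP-30 library 1 (adjusted p 0.0509 to 0.186) and scaled by T>C reads (-0.87, adjusted p = 0.152), and the 24 h call for HYOU1 on that scaling (-0.43, adjusted p = 0.184). PDIA3, DNAJB11, DNAJC3 and CRELD2 fell at 24 h alone, with -1.07, -0.90, -1.30 and -1.35. None of these 4 was called when scaled by T>C reads (-0.42, -0.26, -0.67 and -0.69, adjusted p 0.0687 to 0.598). Without 1 library of that time the call was lost for PDIA3 (dCBP-30 library 1 or DMSO library 2), DNAJB11 (dCBP-30 library 1 or 2 or DMSO library 3) and CRELD2 (dCBP-30 library 3 or DMSO library 1). In total reads the 24 h falls of PDIA3, DNAJC3, ERO1A and HYOU1 were no longer called without TMM factors. With these factors 17 of the 18 fell in total reads at 24 h, beside 29.9% of all genes.

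ERO1B, the second ER oxidase, was the exception. Its total reads were 0.779, 1.07 and 0.746 RPM under DMSO and 4.25, 2.77 and 4.84 RPM under dCBP-30 at 6 h. At 24 h they were 1.62, 1.37 and 0.0725 RPM and 4.16, 5.88 and 5.26 RPM, and at 2 h 1.23, 1.27 and 1.05 RPM and 1.55, 0.726 and 2.07 RPM. All treated libraries exceeded all controls at 6 h and 24 h, with log2 fold changes of 2.18 ± 0.59 (adjusted p = 0.00453) and 2.29 ± 0.58 (adjusted p = 0.00144), but the gene lies near the limit of detection, with at most 12 T>C reads in any library.

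**Figure D3:**
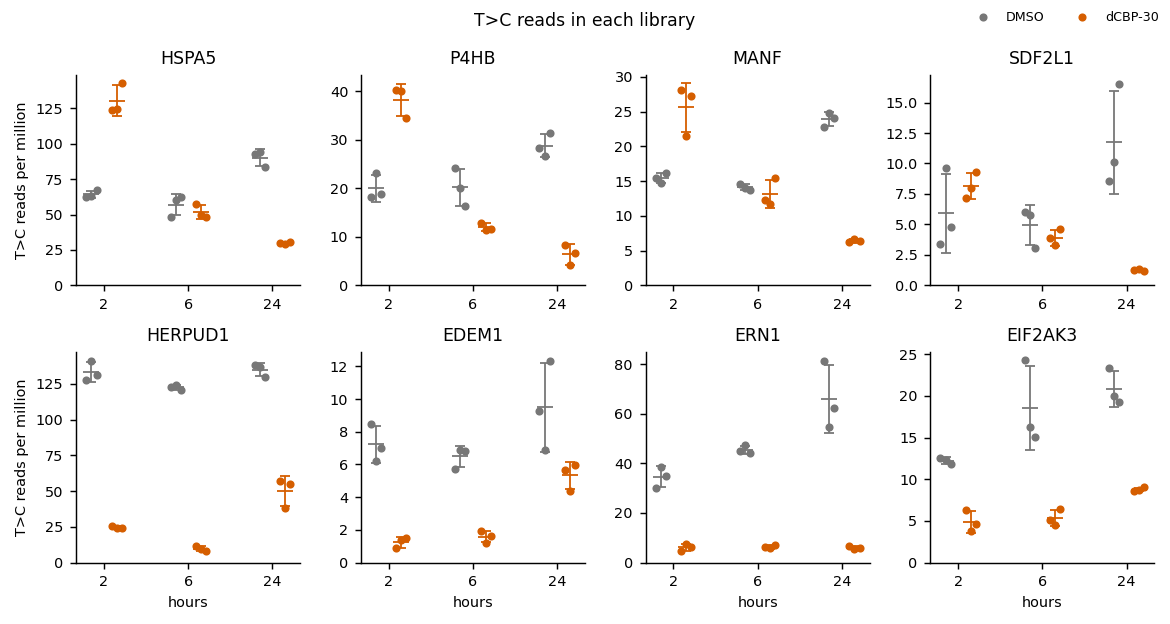
T>C RPM in each library for 8 genes at 2, 6 and 24 h under DMSO (grey) and dCBP-30 (orange); small points are the 3 libraries of a group, the bar is their mean and the whisker 1 SD, and each axis starts at 0. HSPA5, P4HB and MANF lie above DMSO at 2 h and below it at 24 h, while HERPUD1, EDEM1, ERN1 and EIF2AK3 lie below DMSO at every time point.

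Genes of translocation carry nascent proteins to and through the ER membrane, and their newly made RNA fell mainly from 6 h. Of 17 tested, 2 fell at 2 h, 11 at 6 h and 16 at 24 h in T>C reads (8.35%, 21.3% and 37.1% of all genes), and 0, 14 and 15 in total reads (2.67%, 21.5% and 29.9%). At 2 h the T>C count is near the share over all genes. Without TMM factors the total-read calls at 6 h were lost for OSTC, SEC61B, SEC62, SRP9, SSR1, SSR2, SSR3, SSR4 and TRAM1. Those at 24 h were lost for SRP9, SSR1, SSR2, SSR4 and TRAM1. SRPRB, the membrane subunit of the signal recognition particle receptor (chr3:133819767-133821492, plus strand), changed most. Its T>C reads were 19.4, 13.6 and 13.2 RPM under DMSO and 18.6, 15.4 and 18.3 RPM under dCBP-30 at 2 h, with overlap and a log2 fold change of 0.18 ± 0.25. They were 10.5, 13.7 and 13.0 against 3.77, 2.89 and 1.29 RPM at 6 h and 13.3, 20.7 and 20.7 against 2.79, 1.70 and 1.77 RPM at 24 h. Here the groups were clear of each other, with -2.22 ± 0.28 (adjusted p = 2.67e-09) and -3.13 ± 0.29 (adjusted p = 7.99e-14). Total reads of SRPRB were 211, 252 and 237 against 144, 126 and 104 RPM at 6 h and 188, 271 and 240.4 against 39.6, 41.9 and 31.6 RPM at 24 h (-0.90 and -2.63).

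The signal peptidase subunits SPCS1 and SPCS2 fell already at 2 h, with -1.07 (adjusted p = 0.000474) and -1.12 (adjusted p = 0.00183), and reached -2.10 and -2.08 at 24 h. Multimapping reads made up 36.4% of those at SPCS2, and its 2 h call was lost when reads were summed over transcripts (adjusted p = 0.191). SPCS3, the third of these subunits, had 22.5, 22.4 and 18.8 RPM under DMSO and 15.6, 15.2 and 12.8 RPM under dCBP-30 at 2 h. It had 19.0, 19.8 and 17.3 against 7.84, 7.38 and 8.15 RPM at 6 h, and 18.5, 22.2 and 17.7 against 6.62, 4.01 and 7.99 RPM at 24 h. Its libraries were separate at every time point, but the call was made at 6 h (-1.26 ± 0.22, adjusted p = 6.2e-06) and 24 h (-1.65 ± 0.22, adjusted p = 1.16e-08) and not at 2 h (-0.55 ± 0.22, adjusted p = 0.0979). Total reads of SPCS3 were 330.2, 433 and 388 RPM under DMSO and 117, 106 and 112 RPM under dCBP-30 at 24 h (-1.78).

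Of the channel subunits, SEC61G had few T>C reads and fell from 6 h. It had 5.31, 6.63 and 3.96 against 3.54, 2.24 and 2.50 RPM at 2 h, 3.26, 3.95 and 3.80 against 1.20, 0.888 and 0.674 RPM at 6 h and 3.95, 3.70 and 4.86 against 1.26, 0.0549 and 1.13 RPM at 24 h. The treated libraries were lower each time, and the log2 fold changes were -1.99 ± 0.50 (adjusted p = 0.00141) and -2.34 ± 0.50 (adjusted p = 0.0001) at the 2 later times. SEC61B and the channel protein SEC61A1 fell from 6 h to -1.12 and -1.85 at 24 h, and the channel partners SEC63 and SEC62 reached -1.16 and -0.82. Scaled by T>C reads the 24 h calls for SEC61B, SEC63 and SEC62 were lost (adjusted p 0.224 to 0.538). The 6 h calls for SEC61A1, SEC63, SSR2 and TRAM1 were lost on that scaling, and each also on leaving out some 1 library. The 4 subunits of the translocon-associated complex were all lower at 24 h, at -0.82 (SSR1), -1.16 (SSR2), -1.52 (SSR3) and -1.85 (SSR4), as were TRAM1 (-1.23), the glycosylation subunit OSTC (-1.44) and SRP9 (-0.67), a signal recognition particle protein at which 29.5% of reads were multimapping. The 24 h call for SRP9 was lost without any 1 library of that time other than dCBP-30 library 1 (adjusted p 0.0527 to 0.087), and scaled by T>C reads SRP9 stood at -0.02 (adjusted p = 0.962) and SSR1 at -0.17 (adjusted p = 0.607); SSR1 was also lost without dCBP-30 library 2 (adjusted p = 0.0539). Scaled by T>C reads the 24 h calls for SSR2, TRAM1 and OSTC were lost too (adjusted p 0.0942 to 0.14). SSR4 lay near the unlabelled level, with 0.919% of reads converted under DMSO at 2 h against 0.421% without 4sU. Its 24 h call was lost scaled by T>C reads (-1.23, adjusted p = 0.0606) and with background subtracted (-2.53, adjusted p = 0.101). SRP54, the subunit that binds the signal peptide, gave no call, with -0.83 ± 0.49 in T>C reads and -0.26 ± 0.20 in total reads at 24 h.

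ER-associated degradation draws misfolded proteins back into the cytosol. Of 8 of its genes tested, 4 fell at 2 h, 6 at 6 h and 6 at 24 h in T>C reads, beside 8.35%, 21.3% and 37.1% of all genes. HERPUD1, a membrane protein of the degradation complex and a classical stress target (chr16:56943291-56944864, plus strand), had 128, 141 and 131 RPM under DMSO and 25.8, 24.3 and 24.2 RPM under dCBP-30 at 2 h. At 6 h it had 123, 124 and 121 against 11.9, 9.49 and 8.03 RPM. At 24 h it had 138, 137 and 130.1 against 56.8, 38.0 and 54.9 RPM. The treated libraries were lowest at 6 h and nearest to DMSO at 24 h, with log2 fold changes of -2.43 ± 0.16 (adjusted p = 1.58e-19), -3.64 ± 0.17 (adjusted p = 1.4e-26) and -1.44 ± 0.15 (adjusted p = 7.37e-12). The change at 24 h was smaller than at 2 h by 0.99 on the log2 scale (adjusted p = 0.00024). Total reads of HERPUD1 were 448, 576 and 459.7 against 199, 219 and 213 RPM at 2 h. They were 422, 449 and 441 against 51.5, 48.0 and 44.3 RPM at 6 h and 350.4, 354 and 329.5 against 156, 139 and 196 RPM at 24 h. The pool thus followed the same course, at -1.23, -3.19 and -1.08.

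EDEM1, a lectin that selects misfolded glycoproteins, took a similar course in T>C reads. It went from 7.23 ± 1.14 to 1.25 ± 0.341 RPM at 2 h (-2.50 ± 0.36, adjusted p = 1.31e-07), from 6.50 ± 0.661 to 1.58 ± 0.348 RPM at 6 h and from 9.50 ± 2.71 to 5.35 ± 0.835 RPM at 24 h (-0.83 ± 0.31, adjusted p = 0.0301). Its change at 24 h differed from that at 2 h by 1.68 (adjusted p = 0.00535), and EDEM1 and HERPUD1 were the genes of the list for which an upward difference was called. The 24 h fall of EDEM1 was no longer called when T>C reads were scaled by their own total (-0.18, adjusted p = 0.709) or without DMSO library 1 or 3 or dCBP-30 library 1 or 2 of that time (adjusted p 0.0535 to 0.212). SELENOS, which recruits the extraction machinery, fell at all 3 time points (-0.98, -1.98 and -0.74). Its difference between 24 h and 2 h was not called (0.24 ± 0.41), and its 24 h call was lost on the same scaling (-0.12, adjusted p = 0.799) and without any 1 DMSO library or dCBP-30 library 1 or 2 of that time (adjusted p 0.0572 to 0.197). Its 2 h call was lost without dCBP-30 library 1 or 2 or DMSO library 2 (adjusted p 0.0513 to 0.153).

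SEL1L, the scaffold of the ubiquitin ligase SYVN1, stayed low. Its T>C reads were 8.46, 6.14 and 4.18 RPM under DMSO and 1.73, 1.52 and 1.88 RPM under dCBP-30 at 2 h. They were 9.27, 7.64 and 7.26 against 1.62, 1.33 and 1.16 RPM at 6 h and 9.13, 11.1 and 11.1 against 3.06, 1.43 and 2.20 RPM at 24 h. No treated library reached a control, and the log2 fold changes were -1.87 ± 0.36 (adjusted p = 6.47e-05), -2.55 ± 0.36 (adjusted p = 4.57e-08) and -2.22 ± 0.34 (adjusted p = 2.51e-07). Its total reads fell from 74.0, 89.6 and 70.0 to 29.3, 22.1 and 19.0 RPM at 6 h and from 68.0, 76.5 and 78.9 to 29.3, 26.4 and 31.6 RPM at 24 h. SYVN1 and the channel protein DERL1 fell from 6 h, to -1.31 and -1.36 at 24 h. Scaled by T>C reads both 24 h calls were lost (adjusted p 0.0577 and 0.0732), as was that for SYVN1 at 6 h (-0.50, adjusted p = 0.207). The 6 h call for SYVN1 was also lost without dCBP-30 library 2 or DMSO library 1 of that time (adjusted p 0.219 and 0.286). DERL2 (-0.02 ± 0.39) and EDEM2 (0.47 ± 0.63), relatives of DERL1 and EDEM1, gave no call at 24 h or before.

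Of the 6 genes of vesicle transport, 1 fell at 2 h, 2 at 6 h and 4 at 24 h in T>C reads, beside 8.35%, 21.3% and 37.1% of all genes, and the 2 h and 6 h counts, from so few genes, are close to those shares. The early one was KDELR1, the receptor that returns chaperones from the Golgi, which fell from 44.6 ± 7.39 to 19.0 ± 1.36 RPM at 2 h (-1.23 ± 0.19, adjusted p = 1.23e-06) and stayed lower (-1.38 and -1.12). Its abundant total pool, 1467 ± 117 RPM under DMSO at 24 h, had a log2 fold change of -0.46, which turned to 0.06 without TMM factors. LMAN1, a cargo receptor for glycoproteins that leave the ER, had 6.39, 7.83 and 6.65 against 3.88, 3.76 and 6.07 RPM at 2 h, 3.54, 4.22 and 5.15 against 3.59, 1.78 and 2.39 RPM at 6 h and 10.1, 7.33 and 6.67 against 0.438, 1.98 and 2.15 RPM at 24 h. It was separate from DMSO at 2 h, overlapped at 6 h, and was called at 24 h only (-2.40 ± 0.39, adjusted p = 8.99e-07). SEC24D, a cargo-binding subunit of the COPII coat, had 2.77, 2.40 and 0.672 against 4.05, 1.58 and 1.69 RPM at 2 h, 3.18, 2.35 and 1.76 against 1.56, 2.00 and 1.10 RPM at 6 h and 2.66, 4.47 and 5.29 against 0.930, 1.21 and 0.858 RPM at 24 h. With so few reads its groups overlapped until 24 h, when it fell (-2.04 ± 0.53, adjusted p = 0.00122). At 24 h total reads of LMAN1 were 68.5, 85.9 and 86.6 against 24.1, 36.7 and 37.1 RPM (-1.30). Those of SEC24D were 16.0, 16.8 and 15.6 against 11.9, 9.23 and 10.9 RPM (-0.59), a call that was lost without TMM factors (-0.07, adjusted p = 0.755) or without dCBP-30 library 2 (adjusted p = 0.0579). SEC31A, of the outer coat, fell at 24 h (-1.02), KDELR2 at 6 h (-1.24), and SEC23B gave no call (-0.51 ± 0.32 at 24 h). The call for SEC31A was lost without dCBP-30 library 2 (-0.62, adjusted p = 0.263) or DMSO library 2 or 3 (adjusted p 0.0577 and 0.15) and scaled by T>C reads (-0.40, adjusted p = 0.487). That for KDELR2 was lost without any 1 library of that time other than DMSO library 3 (adjusted p 0.058 to 0.157) and scaled by T>C reads (-0.93, adjusted p = 0.15).

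MZB1 and JCHAIN serve the antibody itself: MZB1 assists immunoglobulin assembly in the ER and JCHAIN is the joining chain of polymeric antibody. MZB1 (chr5:139387486-139388616, minus strand) had 53.9, 50.4 and 51.1 T>C RPM under DMSO and 19.6, 19.7 and 16.1 under dCBP-30 at 2 h. It had 50.4, 51.7 and 50.0 against 3.53, 7.82 and 6.07 RPM at 6 h and 74.8, 57.8 and 66.1 against 6.24, 1.76 and 5.79 RPM at 24 h. The treated libraries were lower at each time, with -1.49 ± 0.25 (adjusted p = 2.24e-05), -3.12 ± 0.27 (adjusted p = 9.02e-12) and -3.85 ± 0.27 (adjusted p = 7.41e-14). With the share of unlabelled RNA subtracted, the log2 fold change was -4.54 at 6 h and -3.83 at 24 h, so there the margin did not widen after 6 h. Its total reads were 1558, 1655 and 1603 against 1446, 1448 and 1286 RPM at 2 h and 1578, 1524 and 1658 against 955, 1072 and 1102 RPM at 6 h. At 24 h they had dropped from 1389, 1354 and 1368 to 88.0, 77.2 and 90.2 RPM, the largest fall of the list in total reads (-4.01 ± 0.11, adjusted p = 2.45e-19).

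JCHAIN (chr4:70655541-70656328, minus strand) fell in newly made RNA from 2 h on. Its T>C reads were 64.9, 39.6 and 41.7 RPM under DMSO and 6.12, 3.04 and 6.88 RPM under dCBP-30 at 2 h. They were 45.1, 47.8 and 46.8 against 4.79, 6.27 and 3.98 RPM at 6 h and 45.2, 56.5 and 48.3 against 2.57, 1.54 and 5.69 RPM at 24 h. The log2 fold changes, -3.19 ± 0.32 (adjusted p = 2.27e-08), -3.21 ± 0.32 (adjusted p = 9.02e-09) and -3.93 ± 0.33 (adjusted p = 2.98e-10), were called at every time point. The share of JCHAIN reads with conversions was 3.73% ± 0.605 under DMSO at 2 h and 0.625% ± 0.0144 under dCBP-30, beside 0.696% ± 0.0277 in the libraries without 4sU, so at 2 h its treated share was no higher than that of unlabelled RNA. For MZB1 the corresponding shares at 6 h were 3.20% ± 0.188 and 0.550% ± 0.180, beside 0.382% ± 0.121 without 4sU. With the unlabelled share subtracted, the 2 h fall of MZB1 was -1.49 before and -1.79 after and lost its call (adjusted p = 0.0847), while JCHAIN kept its own (adjusted p = 6.91e-07). The value of JCHAIN then went from -3.19 to -12.26 at 2 h, where almost no T>C reads were left and the size rests on the offset of the fit, and from -3.21 to -4.14 at 6 h, and that of MZB1 from -3.12 to -4.54 at 6 h, so the folds without subtraction are those of reads that include unlabelled RNA.

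In total JCHAIN RNA the fall was called from 6 h. It stood at 1787, 1243 and 953 RPM under DMSO and 993, 473 and 1115 RPM under dCBP-30 at 2 h, which overlapped. At 6 h it was 659, 912 and 849.7 against 465, 409.5 and 310.0 RPM, and at 24 h 628, 848 and 1058 against 108, 101 and 106 RPM. The log2 fold changes were -0.63 ± 0.26 (adjusted p = 0.228), -1.03 ± 0.26 (adjusted p = 0.00421) and -3.01 ± 0.28 (adjusted p = 2.24e-08), and the 6 h call was lost without dCBP-30 library 3 of that time (adjusted p = 0.0605). Antibody light chain RNA was lower as well: reads at the overlapping immunoglobulin lambda genes IGLL5 and IGLC1, which may share reads, made up 6.71% to 7.06% and 5.92% to 6.12% of a DMSO library at 24 h, and 0.826% to 1.12% and 0.721% to 0.997% under dCBP-30.

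**Figure D4:**
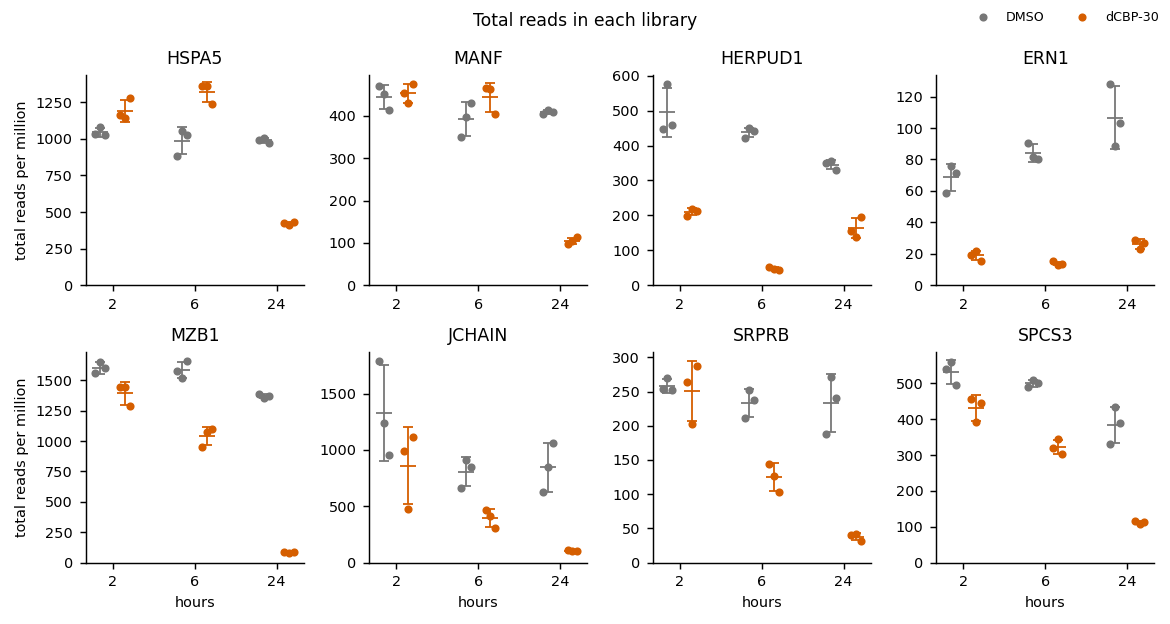
Total RPM in each library for 8 genes at 2, 6 and 24 h under DMSO (grey) and dCBP-30 (orange); small points are the 3 libraries of a group, the bar is their mean and the whisker 1 SD, and each axis starts at 0. ERN1 and HERPUD1 are already low at 2 h, whereas MANF, MZB1 and SRPRB reach their lowest level at 24 h and HSPA5 exceeds DMSO at 6 h.

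Loss of new RNA and loss of the pool were compared gene by gene. Under DMSO at 2 h the median share of reads with conversions was 5.94% over the list and 9.27% over all genes tested, and 12 of the 55 lay above that second value. ERN1, DNAJB9, HERPUD1 (27.1% ± 2.34) and EIF2AK3 (22.6% ± 1.04) held the highest shares, and of these ERN1, HERPUD1 and EIF2AK3 fell in total reads at 2 h. Over the 54 genes other than ERO1B, the share under DMSO at 2 h and the log2 fold change of total reads had a Pearson correlation of -0.46 at 2 h, -0.50 at 6 h and -0.02 at 24 h, and a Spearman correlation of -0.09, -0.21 and 0.35. The points share libraries, and by rank the relation was weaker at 2 and 6 h and of opposite sign at 24 h.

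**Figure D5:**
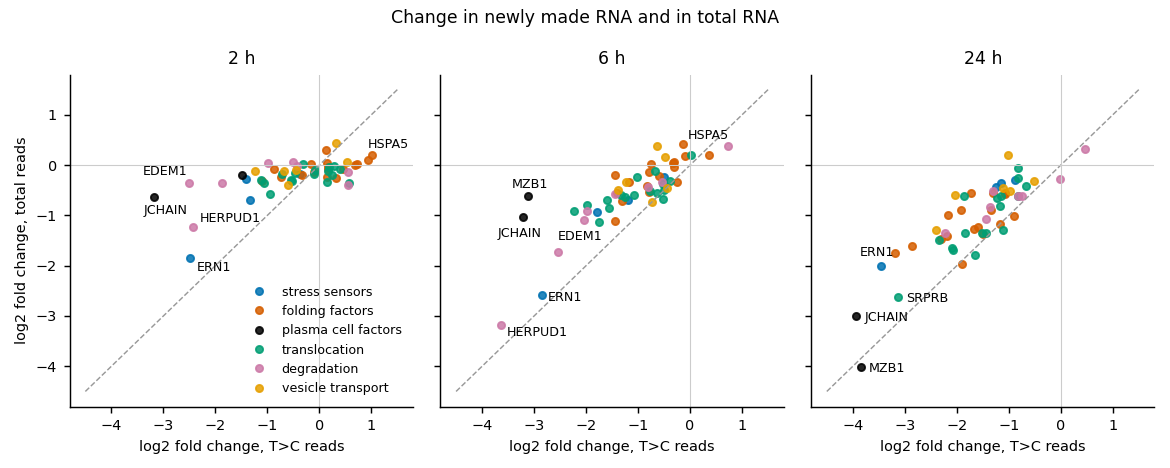
Log2 fold change of total reads against that of T>C reads for 54 genes at 2, 6 and 24 h, coloured by role; the dashed line marks equal change. At 2 h most points lie along 0 in total reads while T>C reads spread from -3.19 to 1.02, and at 24 h the cloud lies lower and nearer to the dashed line, with MZB1 close to it.

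The 24 h groups also differed in labelling. Conversions per T>C read over the list were 1.42 to 1.47 under dCBP-30 and 2.44 to 2.55 under DMSO at 24 h, beside 0.95 without 4sU, while at 2 h they were 2.15 to 2.20 and 2.18 to 2.26. Every treated library was below every control in this measure at 24 h for 50 of the 54 genes of the list with T>C reads in all 6 libraries, and for 70.8% of 9110 such genes among all those tested. The part of this difference in the T>C results at 24 h was not tested.

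The changes over time were tested as the difference between the 24 h and the 2 h change. In T>C reads it was negative for 27 genes of the list and positive for 2 (all genes 23.0% and 3.02%), and in total reads negative for 37 and positive for 1, EDEM2 (all genes 22.8% and 18.3%). Folding factors made up 14 of the 27 and translocation 9. Scaled by T>C reads or without TMM factors, 13 and 17 genes in place of 29 passed in T>C reads.

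Other genes of the route were taken from a list of 88, of which 85 were tested for T>C reads and 86 for total reads. In T>C reads 8 fell and 2 rose at 2 h, 23 fell and 0 rose at 6 h, and 45 fell and 2 rose at 24 h, beside 8.35% and 2.45%, 21.3% and 3.02%, and 37.1% and 2.77% of all genes. In total reads 5 fell and 1 rose at 2 h, 24 fell and 9 rose at 6 h, and 40 fell and 17 rose at 24 h, beside 2.67% and 1.55%, 21.5% and 18.8%, and 29.9% and 28.7% of all genes. At 2 h the T>C falls of this list were thus near the share over all genes. The median log2 fold change of this list was 0.12, -0.34 and -0.97 in T>C reads and -0.07, -0.17 and -0.21 in total reads. The largest falls in T>C reads were those of XBP1, the factor that IRE1 activates by splicing, and TXNDC5, a disulfide isomerase of plasma cells. XBP1 went from 206 ± 10.6 to 30.5 ± 4.07 RPM at 2 h (-2.76 ± 0.16, adjusted p = 1.26e-21) and from 229 ± 1.87 to 9.92 ± 1.76 RPM at 6 h (-4.53 ± 0.17, adjusted p = 5.13e-30), and its total reads from 1107 ± 63.5 to 72.5 ± 16.4 RPM at 24 h. TXNDC5 fell at all 3 time points in T>C reads (-2.65, -4.29 and -4.78) and at 6 and 24 h in total reads (-1.36 and -4.08). The promoter of XBP1 also held the ER stress response element, and that of TXNDC5 the unfolded protein response element; of 76 genes of this list with a promoter, 1 and 13 did. DDIT3, the stress factor CHOP, rose at 24 h in T>C reads (1.28 ± 0.53, adjusted p = 0.0467) and total reads (2.07 ± 0.46, adjusted p = 0.000428), from 3.02 ± 0.718 to 12.7 ± 3.06 RPM. SRPRA, the partner of SRPRB, rose in T>C reads at 2 h (0.88 ± 0.27, adjusted p = 0.0231) and fell at 24 h (-1.31), and SEC61A2, a second channel gene, rose in total reads at 24 h (1.75 ± 0.37, adjusted p = 0.000273). DERL3 had 0.648 ± 0.619 RPM under DMSO and 0 reads in every treated library at 24 h, too few to give a fold.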

How the data were processed

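Newly made and total RNA of MM1.S cells were measured by SLAM-seq in 18 libraries with 4sU and 2 lacking it. The authors trimmed reads with TrimGalore, ran Slamdunk with default settings on hg38 3′ UTRs, removed multimapping and low-quality reads and collapsed them per transcript; the deposited columns are raw counts (all reads, those with T>C, their conversions and the T positions covered), not normalized. Transcripts were matched to GENCODE release 44 (89088 of 97466), and each gene was given its transcript with the most reads. edgeR 4.0.16 (quasi-likelihood, robust, R 4.3.3) was fitted to all genes over the 18 libraries with 1 mean per group, filterByExpr (minimum count 10), library sizes from total reads with TMM factors for both readouts, and Benjamini-Hochberg adjustment. Tests were checked on simulated counts. DESeq2 1.42.0, other scalings, background subtraction, no filter, reads summed over transcripts, the replicate number as a block and fits lacking 1 library each were alternatives. The Drosophila spike-in was not used here. The 55 genes and the other lists were chosen with earlier results of these data known. Every library's values are given, at the time points described, for HSPA5, MZB1, JCHAIN, ERN1, ATF6, EIF2AK3 and, per role, the 2 called genes with the largest change in each readout; in the other list the 2 largest each way are named. Libraries of a group differed beyond sampling noise. The labels do not say that libraries came from separate cultures, so p-values measure the spread between libraries, which may be technical. Counting error limits low genes such as ERO1B and SEC24D.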

Additional observations from a re-analysis of the deposited data

Results flagged for a closer look

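The change at 24 h differed from that at 2 h, by the interaction term of the fit over all genes (adjusted p under 0.05), for 29 of the 55 genes in T>C reads and for 38 in total reads. Values are the log2 change at 24 h minus that at 2 h, in T>C reads. Among sensors it was -0.98 for ERN1, which was no longer called when scaled by T>C reads (-0.33, adjusted p = 0.451) or without TMM factors (-0.57, adjusted p = 0.156) and turned to 0.64 with reads summed over transcripts (adjusted p = 0.209). Among folding factors it was -3.65 for SDF2L1, -3.11 for P4HB, -2.98 for DNAJB9, -2.63 for MANF, -2.62 for HSPA5, -2.35 for CALR, -2.03 for CRELD2, -1.58 for PDIA4, -1.56 for HSP90B1, -1.45 for DNAJC3, -1.40 for PDIA3, -1.32 for CANX, -1.23 for HYOU1 and -1.16 for PDIA6. Among translocation genes it was -3.30 for SRPRB, -2.42 for SSR4, -2.24 for SEC61A1, -1.59 for OSTC, -1.32 for SSR2, -1.20 for SSR3, -1.10 for SPCS3, -1.09 for SSR1 and -1.03 for SPCS1. In vesicle transport it was -2.35 for SEC24D and -1.80 for LMAN1, and for MZB1 it was -2.36. It was upward for the degradation genes EDEM1 (1.68) and HERPUD1 (0.99). Scaled by T>C reads, 17 of the 29 calls were lost, among them that for SSR4 (-1.80, adjusted p = 0.073). With background subtracted the SSR4 call was lost as well (-3.62, adjusted p = 0.119), as was that for MZB1 (-2.04, adjusted p = 0.104).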

How the results depend on the processing

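Counts of genes past 2-fold, and of genes whose change differed between 24 h and 2 h, stayed within 1.5 times their value under DESeq2, without a filter and with reads summed over transcripts. They moved with the scaling. Scaled by T>C reads, 20 genes in place of 42 fell in T>C reads at 24 h and 13 in place of 29 differed between 24 h and 2 h. Without TMM factors these were 24 and 17, those lower in total reads 3 in place of 7 at 6 h and 10 in place of 25 at 24 h, and 2 in place of 1 rose in T>C reads at 2 h, as with background subtracted (2). Without TMM factors some called falls in total reads turned sign, to 0.085 for EIF2AK3, 0.18 for CREB3L2, 0.11 for SRP9, 0.012 for SYVN1, 0.061 for KDELR1 and 0.0068 for KDELR2 at 24 h, and to 0.0044 for SSR1 at 6 h. With reads summed over transcripts the difference for ERN1 turned to 0.64 (adjusted p = 0.209); the cause was not tested. Leaving out 1 library at a time gave 11 to 13, 23 to 26 and 38 to 45 genes lower and 1 to 2, 0 and 0 higher in T>C reads at 2, 6 and 24 h, and 2, 5 to 8 and 23 to 26 lower and 0, 1 and 1 higher in total reads; differences between 24 h and 2 h ranged from 27 to 32 and from 35 to 38. Same-numbered libraries did not deviate together (correlations -0.0576 to 0.0167 in T>C and -0.246 to 0.0632 in total reads). Whether they were cultured or processed together is not given by the labels. With a replicate block 13, 25 and 42 genes were lower in T>C reads and 2, 7 and 25 in total reads, and no count moved by over 1.5 times. Depth limits ERO1B, SEC24D and SEC61G.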
